A study of Mus musculus with 4 samples.

Results

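Oxidative phosphorylation is the process by which mitochondria pass electrons from nutrients along complexes I to IV of the inner membrane to oxygen and use the resulting proton gradient to make ATP at complex V. Its complexes are built from the products of 2 genomes: the mitochondrial DNA encodes a small set of core subunits, and nuclear genes encode the rest, all of complex II included. In liver, this process supplies ATP for glucose production, urea synthesis and fatty acid handling, and oxygen falls along each lobule from the portal to the central vein.

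The genes described here are all those in the files whose symbol starts with mt-, or with Nduf followed by a, b, c, s or v, Uqcr, Cox4 to Cox8 or Atp5, together with Sdha, Sdhb, Sdhc and Sdhd, without pseudogene names. This gave 106 of 32285 genes. Of these, 13 are mitochondrially encoded: 7 subunits of complex I, mt-Cytb of complex III, 3 subunits of complex IV and 2 of complex V. The 93 nuclear members comprise 38 genes named as complex I subunits, 8 assembly factors of complex I (the Ndufaf genes, which help to build the complex and are not part of it), 4 of complex II, 8 of complex III, 18 of complex IV and 17 of complex V. The name rule also takes in Ndufa4, now regarded as a complex IV subunit, and Cox7a2l, a factor of respiratory supercomplexes. Cox7b2 and Cox8c had 0 UMIs in every section.

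The study laid 4 frozen mouse liver sections on Visium slides, on which barcoded spots capture the RNA of the tissue above them and each captured molecule is counted by its unique molecular identifier (UMI). STAM16w and STAM20w are sections of the STAM model, a metabolic model of liver cancer with fatty liver inflammation and insulin deficiency, and DEN22w and DEN30w are sections of a model made with diethylnitrosamine (DEN), which damages DNA, and carbon tetrachloride (CCl4), which scars the liver. The numbers are read as weeks; strain, sex, dose and whether weeks mean age or time since treatment are not given in the sources used here, and no section of healthy liver was analysed. Each model had 1 section at each of 2 times, so p-values measure the spread between sections, and model cannot be told apart from week or from the slide position and processing of a section. One spot usually covers more than a single cell, and fewer cells of a type cannot be told apart from less RNA per cell.

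After filtering, 2080 to 2968 spots per section held 20700642 to 40008457 UMIs, with medians of 7302.5 to 12761 UMIs per spot. All 10 of the hepatocyte markers listed, such as Alb, were detected in every section. Sections shared 1639 to 2204 spot barcodes pairwise, which are slide positions common to all slides, and the correlation of log UMI totals at shared positions was 0.33 to 0.58. Markers of other cell types were present in every section, and their values stand beside the results with which they moved.

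The sequences that bear on the members are shown first. Transcription of many nuclear genes of this pathway is known to use nuclear respiratory factor 1 (NRF1), which binds a palindromic GC-rich element, and GABPA, an ETS factor. Promoter windows of 250 bases upstream of the transcription start, from RefSeq on GRCm38.p6, were found for 76 of the 93 nuclear members, in 81 windows. The NRF1 core CGCATGCG, which reads the same on both strands, was present in 8 of the 81 windows (9.88%), against 2.06% of 21263 windows of protein coding genes. The ETS core CCGGAAGT, or its reverse ACTTCCGG, was present in 3 windows (3.7%), against 3.79% of those of protein coding genes. AAGGTCA, the core of oestrogen-related receptors, or its reverse TGACCTT, was in 6.17% against 3.59%, and AAGATGG, the YY1 core, or its reverse CCATCTT, in 1.23% against 4.13%. The 8 windows with the NRF1 core belong to Atp5g2, Atp5j, Atp5k, Atp5l, Cox6a1, Ndufa11, Ndufa8 and Ndufaf4. Among windows of members called higher with the mitochondrial UMI share (below), 4 of 50 (8%) held it, no more often than among all nuclear members. These belong to Atp5j, Atp5k, Atp5l and Cox6a1; those of the last 3 are printed 5′ to 3′ on the gene's strand, with the core in capitals. They are Atp5k (chr5:108434400-108434649, minus strand), Atp5l (chr9:44920743-44920992, minus strand) and Cox6a1 (chr5:115348959-115349208, minus strand), the first 2 encoding small subunits of ATP synthase and the last a subunit of cytochrome c oxidase.
Atp5k: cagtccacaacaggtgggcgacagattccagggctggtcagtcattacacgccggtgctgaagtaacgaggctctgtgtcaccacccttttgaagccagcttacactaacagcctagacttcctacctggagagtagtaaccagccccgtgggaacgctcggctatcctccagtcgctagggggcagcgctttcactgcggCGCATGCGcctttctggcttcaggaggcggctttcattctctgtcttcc
Atp5l: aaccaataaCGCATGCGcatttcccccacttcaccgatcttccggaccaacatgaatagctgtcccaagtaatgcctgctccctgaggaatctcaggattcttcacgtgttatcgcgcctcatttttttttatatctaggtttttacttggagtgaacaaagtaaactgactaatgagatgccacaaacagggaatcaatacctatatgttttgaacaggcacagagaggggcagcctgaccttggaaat
Cox6a1: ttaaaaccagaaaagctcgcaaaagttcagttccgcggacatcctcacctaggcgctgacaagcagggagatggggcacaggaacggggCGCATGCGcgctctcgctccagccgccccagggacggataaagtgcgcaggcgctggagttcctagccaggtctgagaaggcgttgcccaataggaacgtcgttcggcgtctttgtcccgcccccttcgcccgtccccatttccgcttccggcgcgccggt
In Atp5k the core begins 49 bases before the start, in Cox6a1 161 bases and in Atp5l 241 bases. A match describes the letters only; factor binding was not measured.

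The 13 mitochondrially encoded genes lie on the mitochondrial chromosome (MT), and several overlap, which matters for how UMIs are assigned. mt-Atp8 (MT:7766-7969) shares its last 43 bases with mt-Atp6 (MT:7927-8607), mt-Nd4l (MT:9877-10173) shares 7 bases with mt-Nd4 (MT:10167-11544), and mt-Nd5 (MT:11742-13565) shares 14 bases with mt-Nd6 (MT:13552-14070). mt-Nd6 is transcribed from the other strand. Values of these overlapping genes are therefore uncertain as values of single genes.

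Mitochondrially encoded transcripts took 2.10% of all UMIs in STAM16w and 3.67% in STAM20w, against 1.31% in DEN22w and 1.55% in DEN30w. The 93 nuclear members together took 3.73%, 4.26%, 3.16% and 2.67% in the same order. Both shares were thus higher in each STAM section than in each DEN section, and the mitochondrial share varied more. The ratio of mitochondrially encoded to nuclear UMIs was 0.562, 0.862, 0.414 and 0.581. STAM16w lay below DEN30w on this ratio, so the models overlapped: the log2 ratio was 0.50 higher in STAM, with an exact two-sided permutation p of 0.667, where 0.333 is the smallest that 2 against 2 sections can give. Exact 95% binomial intervals cover counting error only and are narrow, from 1.55% to 1.56% for the mitochondrial share of DEN30w.

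**Figure D1:**
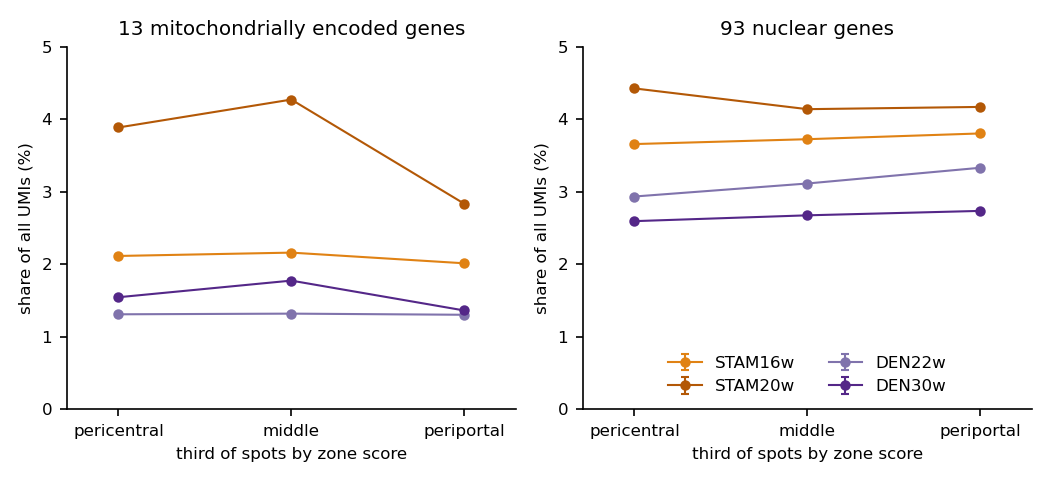
Share of all UMIs (%, y axis) of the 13 mitochondrially encoded genes and the 93 nuclear members in the pericentral, middle and periportal spots of the 4 sections, with exact 95% binomial intervals that are smaller than the points. The mitochondrial share of STAM20w ran from 2.84% in periportal to 4.27% in middle spots, while DEN22w stayed between 1.302% and 1.32%.

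Between the models, each of the 13 mitochondrially encoded genes had a higher CPM (UMIs per 1000000 UMIs of the section) in both STAM sections than in both DEN sections. The same held for 68 of the 91 nuclear members tested and for 18.5% of all 14417 genes tested. The difference passed the test for 2 mitochondrial genes, mt-Nd4l and mt-Nd5 (edgeR's quasi-likelihood test on section sums, Benjamini-Hochberg adjusted p under 0.05 over all genes); 0.291% of all genes were called higher in STAM. No nuclear member was called, and 34 had an unadjusted p under 0.05, as did 3305 of all genes and 767 of 2610 genes at 50 CPM or more. DESeq2 called 23 nuclear members higher, and 897 of all genes. Over the 13 mitochondrial genes the median log2 difference was 1.17, over the 91 nuclear members 0.62 with 88 above 0, and over all genes 0.00.

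mt-Nd4l, a small membrane subunit of complex I, was at 76.1 and 125 CPM in STAM16w and STAM20w, and 15.7 and 16.4 in DEN22w and DEN30w. Its log2 difference was 2.80 (SE 0.27, edgeR adjusted p = 0.0308). mt-Nd5, a proton-pumping subunit of complex I, was at 271, 445, 64.0 and 65.8 CPM, a log2 difference of 2.62 (SE 0.30, edgeR adjusted p = 0.0442). Both STAM sections stood far above both DEN sections, and the DEN sections differed by 1.04-fold and 1.03-fold. The other gene with such a difference was mt-Atp8, a short subunit of ATP synthase, at 38.1, 62.2, 12.3 and 9.35 CPM. Its log2 difference of 2.36 (SE 0.30) did not pass (edgeR adjusted p = 0.0561). The genes that overlap mt-Nd4l and mt-Atp8 had smaller log2 differences, 1.02 (SE 0.33) for mt-Nd4 and 0.92 (SE 0.40) for mt-Atp6. The counts of mt-Nd4l and mt-Atp8 are therefore not read as amounts of separate transcripts. The part of UMI assignment between overlapping genes was not tested.
Leaving out any section, STAM or DEN, left 1 section on that side, so the calls of mt-Nd4l and mt-Nd5 could not be judged there. With either DEN section left out, their log2 differences were 2.57 to 2.84. Without TMM scaling neither passed (edgeR adjusted p = 0.0653 and 0.0693); the median of all genes was then −0.17, and 7 genes were called higher and 7 lower, against 42 and 21 with it.

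The remaining complex I genes of the mitochondrial DNA were nearer to the median. mt-Nd2 was at 1950, 3141, 950 and 1003 CPM in STAM16w, STAM20w, DEN22w and DEN30w, a log2 difference of 1.54 (SE 0.36, edgeR adjusted p = 0.101). mt-Nd1 was at 1173, 2506, 730 and 937 CPM (1.29), mt-Nd4 at 1675, 2408, 1103 and 1140 CPM (1.02), and mt-Nd3 at 710, 1043, 448 and 571 CPM (0.95). mt-Nd6, the light-strand gene, was barely counted, with 30, 57, 29 and 38 UMIs (0.44). Its neighbour and partial overlap mt-Nd5 had 5612, 17816, 1438 and 2294 UMIs, so the pair differed in both level and size of difference.

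mt-Cytb, the cytochrome b of complex III, was at 2308, 3336, 1490 and 1504 CPM, a log2 difference of 1.07. The 3 catalytic-core subunits of complex IV were mt-Co1 (4635, 8707, 2677 and 3412 CPM; 1.29), mt-Co2 (1598, 3290, 1161 and 1562 CPM; 0.9985) and mt-Co3 (3612, 6532, 2216 and 2826 CPM; 1.17). mt-Atp6, the proton-channel subunit of complex V, was at 2922, 5099, 2221 and 2491 CPM (0.92). STAM20w was the highest of the 4 sections for each of these genes, and for mt-Co2 STAM16w and DEN30w were nearly level. These genes did not pass, with edgeR adjusted p of 0.156 to 0.237 for the genes of this paragraph, mt-Nd1, mt-Nd3 and mt-Nd4; DESeq2, with its 897 higher calls over all genes, called 11 of the 13 mitochondrial genes.

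**Figure D2:**
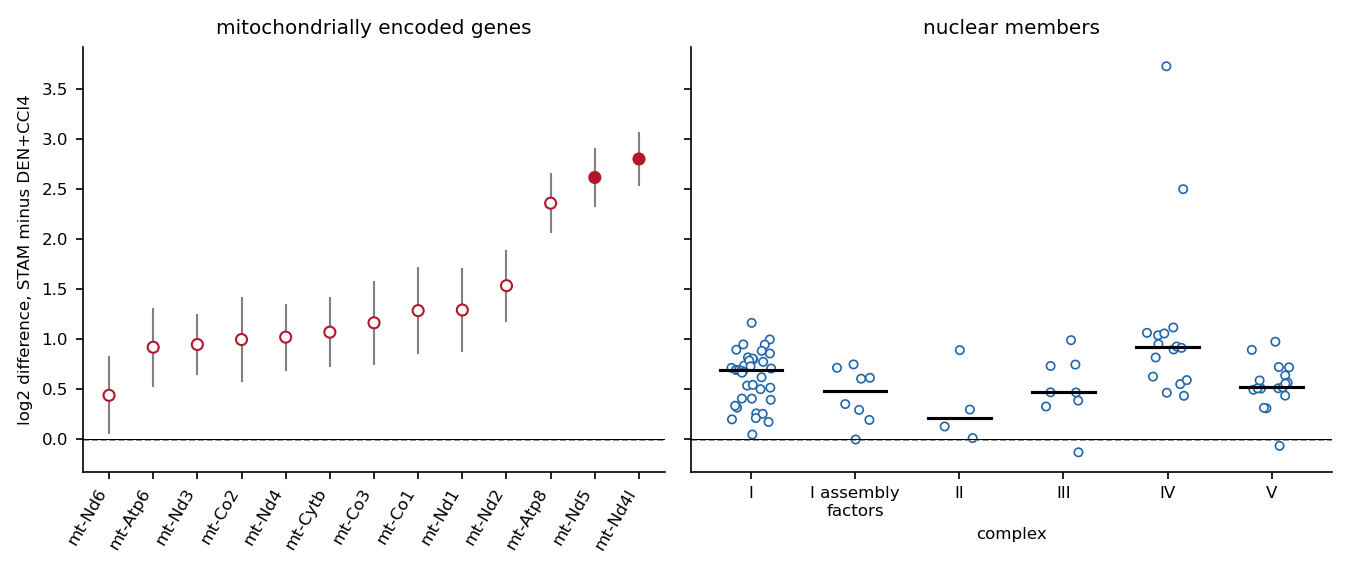
Log2 difference between STAM and DEN+CCl4 sections (y axis) for each mitochondrially encoded gene, with its standard error, and for the nuclear members by complex, with the median of each complex as a bar. Filled points passed the test: mt-Nd5 and mt-Nd4l stand highest at 2.62 and 2.80, and the dashed line marks the median of all genes at 0.00.

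mt-Nd4l, mt-Nd5 and mt-Atp8 were grouped after their values were seen, and their part in the mitochondrial RNA does not depend on scaling between sections. Together they made up 1.84% (exact 95% binomial interval 1.80 to 1.88) of mitochondrial UMIs in STAM16w and 1.72% (1.70 to 1.75) in STAM20w. In DEN22w they made up 0.70% (0.67 to 0.73) and in DEN30w 0.59% (0.57 to 0.61). The models did not overlap. These were the mitochondrial genes with the largest differences between the models, so this gap adds no separate support. Each of them overlaps a neighbouring gene, and the part of UMI assignment in this gap was not tested. The sections of a model lay close together although their mitochondrial shares differed. Within the STAM sections the 3 genes also varied between spots. They were 1.94% of mitochondrial UMIs in pericentral against 1.68% in periportal spots of STAM16w, and 1.81% against 1.48% in STAM20w; the corresponding values were 0.71% and 0.69% in DEN22w and 0.58% and 0.57% in DEN30w. Between the spots of lowest and highest mitochondrial share (defined below) they ran from 1.32% to 1.93% in STAM20w and from 1.69% to 1.99% in STAM16w, from 0.61% to 0.77% in DEN22w, and from 0.64% to 0.58% in DEN30w.

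**Figure D3:**
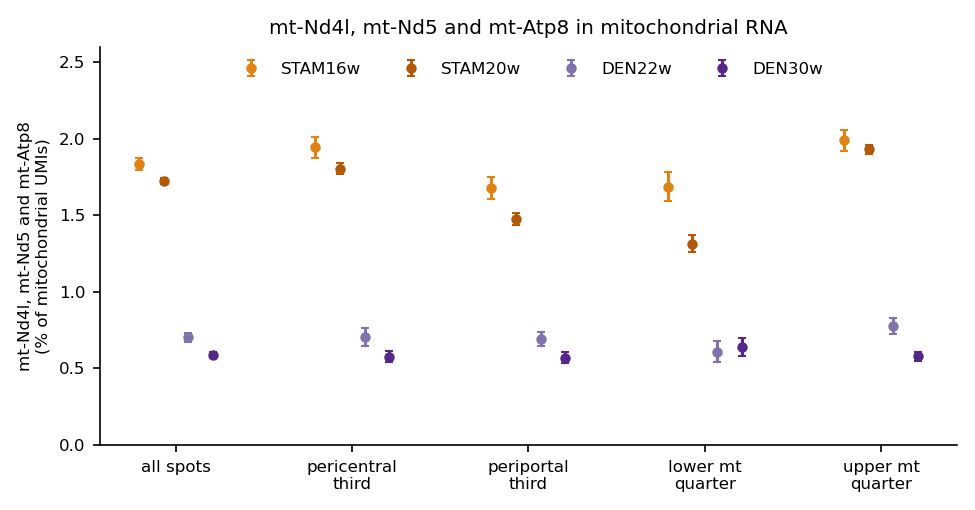
Summed share of mt-Nd4l, mt-Nd5 and mt-Atp8 in the mitochondrial UMIs (%, y axis) of all spots, of the pericentral and periportal spots, and of the spots with the lowest and highest mitochondrial share in each section, with exact 95% binomial intervals. Both STAM sections lie between 1.32% and 1.99% and both DEN sections between 0.57% and 0.77%.

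Among the nuclear members, complex IV had the largest median log2 difference between the models, 0.92 over 16 genes tested, followed by complex I with 0.69 over 38, complex V with 0.52 over 17, the Ndufaf assembly factors with 0.48 over 8, complex III with 0.47 over 8 and complex II with 0.21 over 4. The nuclear member with the smallest adjusted p was Ndufa12, an accessory subunit of complex I, at 188 and 253 CPM in STAM16w and STAM20w, and 117 and 102 in DEN22w and DEN30w, a log2 difference of 1.17 (SE 0.25, edgeR adjusted p = 0.0940). Members with the most UMIs of their complex were not called either. Cox6c, a small subunit of complex IV, was at 1655, 1654, 1375 and 1018 CPM, and Atp5b, the catalytic beta subunit of ATP synthase, was at 1218, 1219, 1479 and 1386 CPM, lower in both STAM sections. Uqcrq, a complex III subunit, was at 1289, 1500, 1217 and 1032 CPM. Sdha and Sdhb, the flavin and iron-sulphur subunits of complex II, were at 250 to 300 CPM and at 228 to 254 CPM with the models overlapping.
Other gene groups also had positive medians: 83 genes of cytoplasmic ribosomal proteins had a median of 0.94, with 82 above 0, and 38 proteasome subunit genes had a median of 0.56, with 38 above 0; none of either was called. The hepatocyte markers had a median of −0.53 with 1 of 10 above 0 and the stellate cell and fibroblast markers −0.83 with 1 of 9 above 0, and their part in the result was not tested.

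Several complex IV subunits exist in tissue-specific forms, and the liver forms dominated in every section. Cox4i1 was at 853 to 1320 CPM, against 0.31 to 1.3 CPM for its lung- and hypoxia-linked relative Cox4i2. Cox6a1 was at 407 to 858 CPM, and the muscle form Cox6a2 had 20, 42, 2 and 10 UMIs in STAM16w, STAM20w, DEN22w and DEN30w. Cox7a2 was at 458 to 904 CPM, and the muscle and brown fat form Cox7a1 at 7.68, 11.97, 5.65 and 6.14 CPM. Cox8a was at 568 to 1185 CPM, while Cox8b, the form of muscle and brown fat, had 14, 181, 6 and 6 UMIs. Cox8b thus stood out in STAM20w, where it was found in 163 spots (5.75%) with at most 3 UMIs in a spot. Its log2 difference between models of 3.73 (SE 0.96, edgeR adjusted p = 0.114) did not pass, nor did that of Cox6a2 at 2.50 (SE 0.60, edgeR adjusted p = 0.103). Cox6b2, the testis form, was at 6.76, 13.8, 3.03 and 7.60 CPM, beside 492 to 690 CPM of Cox6b1. Of the 3 genes for the c subunit of ATP synthase, Atp5g1 was at 362, 578, 368 and 341 CPM, Atp5g2 at 245, 325, 217 and 231 CPM and Atp5g3 at 357, 437, 361 and 356 CPM. Ndufa4 was at 1185, 1425, 997 and 754 CPM and its hypoxia-linked relative Ndufa4l2 at 4.54, 6.77, 4.45 and 3.27 CPM.

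Genes that serve the pathway were described from lists of related genes. Between the models, 1 gene of the 8 such lists was called: Esrrg, encoding an oestrogen-related receptor that activates mitochondrial genes, with 32 and 85 UMIs in STAM16w and STAM20w, and 0 and 1 in DEN22w and DEN30w (edgeR adjusted p = 0.0442). Its related receptor gene Esrra was at 41.7, 34.7, 64.2 and 49.0 CPM and was not called. No gene was called among 25 of the mitochondrial ribosome (median 0.48), 25 assembly factors of complexes III to V (0.38), 21 of mitochondrial DNA upkeep and RNA handling (0.22), 18 of the citric acid cycle (0.28), 14 chaperones and proteases (0.22), 13 carriers (0.42) and 10 of electron carriers such as Etfa (0.19).

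Time was compared within each model without a test, because 1 section stood on each side. In STAM20w against STAM16w, 12 of 12 mitochondrially encoded genes at 50 CPM or more were higher, by a median log2 ratio of 0.72, against 0.19 for 78 nuclear members and 0.19 for all 2775 genes. mt-Nd1 at 2.14-fold and mt-Co2 at 2.06-fold were at least 2-fold higher, as were 7.42% of all genes; 3.71% were at least 2-fold lower, none of them a member. In DEN30w against DEN22w, 10 of 10 mitochondrially encoded genes at that level were higher, by a median of 0.26, while 73 of 78 nuclear members were lower, by a median of −0.22, against 0.02 for all genes. No member reached 2-fold there, where 2.58% of genes were higher and 1.51% lower by that factor. The mitochondrial share of DEN22w and DEN30w was 1.25% and 1.295% in spots with all neighbouring spots kept. In the remaining spots, at margins, it was 1.67% and 2.93%. Among the larger ratios of the DEN pair were Cox6c (0.740-fold), Uqcr10 of complex III (0.740-fold), Ndufa4 (0.756-fold), mt-Co2 (1.35-fold) and mt-Nd1 (1.28-fold). From 10 CPM on, 11 of 12 mitochondrially encoded genes were higher, with a median of 0.12 and mt-Atp8 lower, and 78 of 84 nuclear members were lower, with a median of −0.21.

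To compare zones, spots were ranked within each section by 16 periportal against 16 pericentral hepatocyte markers, none of them a member, cut into 3 equal parts, and the outer parts were compared with the section as a block. The ratio of mitochondrially encoded to nuclear UMIs was lower in periportal than in pericentral spots of all 4 sections. The log2 difference was −0.13 and −0.37 in STAM16w and STAM20w, and −0.19 and −0.26 in DEN22w and DEN30w, with a mean of −0.24 ± 0.10 (SD, n = 4) and an exact two-sided sign permutation p of 0.125, the smallest that 4 sections allow. In pericentral, middle and periportal spots the ratio was 0.578, 0.580 and 0.529 for STAM16w, and 0.878, 1.03 and 0.680 for STAM20w. It was 0.446, 0.423 and 0.391 for DEN22w, and 0.595, 0.663 and 0.498 for DEN30w. Middle spots were thus highest in all sections but DEN22w, so no steady fall towards the portal side was seen there. The nuclear share in pericentral and periportal spots was 3.66% and 3.81% for STAM16w, and 4.43% and 4.17% for STAM20w. For DEN22w it was 2.94% and 3.33%, and for DEN30w 2.595% and 2.74%. STAM20w went the other way for the nuclear genes and had the largest difference for the mitochondrial ones, 3.89% against 2.84%. Depth differed between zones. Median UMIs of pericentral and periportal spots were 10390 and 9286 in STAM16w and 13556 and 12548 in STAM20w. They were 5832 and 9699 in DEN22w and 8436 and 11140 in DEN30w. The nuclear share also varied over 10 bins of UMI total. From lowest to highest bin it went from 2.74% to 3.37% in DEN22w and 2.36% to 2.81% in DEN30w. It went from 3.69% to 3.73% in STAM16w and 3.91% to 4.40% in STAM20w. The part of depth was not tested.

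Gene by gene, few members passed. In the periportal spots 4.53% of 13449 genes were called higher and 3.68% lower. Of the nuclear members, 1 of 91 was called higher: Cox7b, a subunit of complex IV encoded on chromosome X, at 583 against 654 CPM in pericentral and periportal spots of STAM16w, 680 against 759 in STAM20w, 503 against 651 in DEN22w and 463 against 543 in DEN30w. It was higher in all 4 sections, with a log2 difference of 0.38 in the fit with TMM scaling (SE 0.10, edgeR adjusted p = 0.0327). That scaling put the median of all genes at 0.02 against −0.13 without it, and the fitted difference is larger than the CPM values give. This call was lost without either DEN section (edgeR adjusted p = 0.216 and 0.207), without TMM scaling (0.0760) and with zones by Cyp2e1 and Cyp2f2 alone (0.0694). Without STAM20w, 12 nuclear members were called higher and 1 lower, against 490 and 620 of 12883 genes.
Of the nuclear members, 86 of 91 had a positive difference in the fit, with a median of 0.18 against 0.02 for all genes; at 50 CPM or more all 78 did (0.19), as did 1869 of 2640 genes at that level (0.09). An unadjusted p under 0.05 was found for 33 nuclear members, for 3023 of all genes and for 931 of those at 50 CPM or more. The sections differed: by CPM alone, 63 of 86 nuclear members with enough UMIs were lower in periportal spots of STAM20w, and 27, 9 and 21 in STAM16w, DEN22w and DEN30w. Without TMM scaling the median of all genes was −0.13, that of the nuclear members 0.03 with 62 of 91 positive, and 254 genes were called higher and 922 lower, against 609 and 495 with it. Of the mitochondrial genes 0 of 13 were called by edgeR and by DESeq2, 1 had an unadjusted p under 0.05 and 10 were below 0, with a median of −0.10. The lowest was mt-Atp8 at −0.37 (SE 0.12, edgeR adjusted p = 0.0731), and the highest mt-Cytb at 0.18 (SE 0.10, edgeR adjusted p = 0.351).
Markers of other cell types moved with the zones: 10 of 14 Kupffer cell and macrophage genes, 4 of 9 stellate cell and fibroblast genes and 4 of 6 cycling cell genes were called lower in periportal spots, and 4 of 10 hepatocyte genes higher. With the spots richest in other cell types left out, the mean log2 difference of the ratio was −0.25. In the citric acid cycle list, 5 of 18 genes were called higher and 3 lower in periportal spots, with Cs, encoding citrate synthase, at −0.60 (SE 0.12, edgeR adjusted p = 0.00970), Idh3a at −0.51 (SE 0.11) and Ogdh at 0.33 (SE 0.08).

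The zone difference was then compared between models. Of 13449 genes, 0.446% were called in either direction, and 0 of 104 members by edgeR or DESeq2, with 53 at an unadjusted p under 0.05, as were 1964 of all genes and 587 of 2639 genes at 50 CPM or more. All 13 mitochondrial and 88 of 91 nuclear members had a more negative difference in STAM than in DEN, with medians of −0.35 and −0.31 against −0.04 for all genes. The same direction held for 1924 of the genes at 50 CPM or more (median −0.13), for 81 of 82 cytoplasmic ribosomal protein genes (−0.24), 35 of 38 proteasome genes (−0.18) and 18 of 18 citric acid cycle genes (−0.26). Without TMM scaling the mitochondrial median was −0.17. By median UMIs, periportal spots were deeper than pericentral spots in both DEN sections and shallower in both STAM sections. The part of depth in this result was not tested. The member nearest the threshold was Ndufaf6, an assembly factor of complex I, at 30.3 and 24.2 CPM in pericentral and periportal spots of STAM16w, 34.9 and 23.9 in STAM20w, 16.7 and 19.98 in DEN22w and 16.9 and 18.9 in DEN30w. It was lower on the portal side in both STAM sections and higher there in both DEN sections, a log2 difference of −0.83 (edgeR adjusted p = 0.0502). Collagen genes Col1a1, Col1a2, Col3a1 and Col6a1 were called in the other direction; their part in the result was not tested. Without STAM16w, 7 mitochondrial and 21 nuclear members were called in that direction and 1 nuclear member in the other, where 517 and 613 of 14091 genes were. Without STAM20w no member was called, and the mitochondrial median was −0.20; without TMM scaling the calls over all genes were 122 higher and 16 lower, against 35 and 25 with it.

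Spots differed far more in mitochondrial share than zones did. The share per spot had a median of 1.87% and 2.42% in STAM16w and STAM20w, and 1.18% and 1.16% in DEN22w and DEN30w, and a maximum of 11.9%, 40.8%, 9.15% and 8.46%. The nuclear share was narrower, with a 10th to 90th percentile range of 3.64% to 4.73% in STAM20w, where that of the mitochondrial share was 1.47% to 7.72%. High spots lay together: Moran's I over adjacent spots (near 0 for no grouping, 1 for full grouping) was 0.29, 0.55, 0.28 and 0.47 for the mitochondrial and 0.21, 0.51, 0.35 and 0.31 for the nuclear genes. In STAM20w, 168 spots had over 10% mitochondrial UMIs, 140 of them with all 6 neighbouring spots kept, and they held 18.8% of the section's mitochondrial UMIs. These spots had a median of 6683 UMIs, against 12761 in the section, and 70 were pericentral, 77 middle and 21 periportal spots. Without them the mitochondrial share of STAM20w was 3.15%.
Spots at a tissue margin, hole or the border of the capture area, which lack at least 1 neighbour, were 15.9% to 20.9% of spots. Their mitochondrial share was 2.43% against 2.03% of interior spots for STAM16w, 3.43% against 3.70% for STAM20w, 1.67% against 1.25% for DEN22w and 2.93% against 1.295% in DEN30w. In interior spots the shares of the 2 DEN sections were thus nearly level. With interior spots only, the log2 ratio of mitochondrial to nuclear UMIs was 0.65 higher in STAM (exact permutation p = 0.333, the smallest possible).

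**Figure D4:**
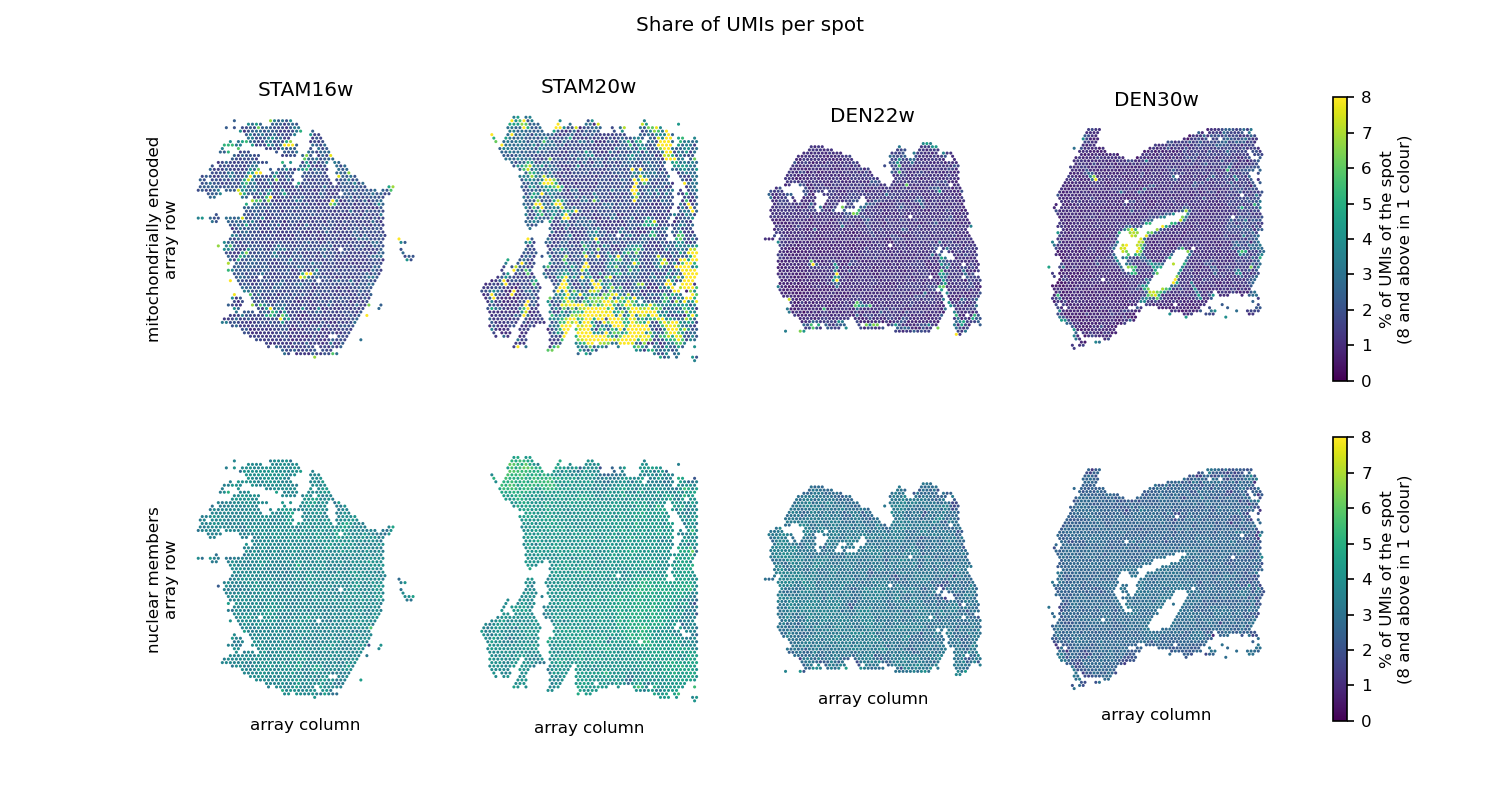
Each kept spot of the 4 sections at its array column and row, coloured by the share of its UMIs (%) from the 13 mitochondrially encoded genes (top) and the 93 nuclear members (bottom) on 1 scale, with shares of 8% and above in 1 colour. High mitochondrial shares lie together near the lower border of STAM20w, the section with 168 spots above 10%, and beside the tissue gaps of DEN30w, whose margin spots held 2.93%.

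The next comparison asked whether nuclear members rise where mitochondrial RNA is high. Within each section, spots were split by mitochondrial share into 4 equal parts inside 10 bins of UMI total, so that the parts had like depth. Genes were compared between the highest part (high-share spots) and the lowest (low-share spots) with all mt- genes removed from the counts. The mitochondrial share was 1.44% and 3.17% in the low-share and high-share spots of STAM16w, 1.53% and 7.61% in STAM20w, 0.879% and 2.001% in DEN22w and 0.867% and 2.89% in DEN30w; these values define the groups. The nuclear members' share of the other UMIs was 3.75% and 3.89% for STAM16w, 4.16% and 4.63% for STAM20w, 3.10% and 3.27% for DEN22w, and 2.58% and 2.88% for DEN30w. It was higher in the high-share spots in all 4 sections.
Of the nuclear members, 53 of 89 were called higher and 0 lower, against 6.9% of all 12930 genes called higher. The median log2 difference was 0.24 with 88 above 0, against −0.01 for all genes. By CPM alone, without TMM scaling, 62 to 71 of 86 nuclear members were higher in the high-share spots of a section, with medians of 0.06 and 0.16 in STAM16w and STAM20w, and 0.09 and 0.16 in DEN22w and DEN30w. Among genes at 50 CPM or more, 51 of 78 nuclear members and 21.3% of 2663 genes were called higher. Without TMM scaling, which put the median of all genes at −0.13, the median of the nuclear members was 0.12 and 25 were called; over all genes 311 were then called higher and 1934 lower, against 892 and 595 with it.

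Members of every complex were called. In complex V 12 of 17 members were called higher, in complex I 23 of 38, in complex III 5 of 8, in complex IV 8 of 14 tested and in complex II 4 of 4, but of the Ndufaf assembly factors 1 of 8, Ndufaf8. The smallest adjusted p belonged to Atp5g3, encoding the c subunit of the ATP synthase rotor. It went from 348 to 389 CPM of non-mitochondrial UMIs for STAM16w, 381 to 552 for STAM20w, 339 to 426 for DEN22w and 315 to 454 for DEN30w, and rose in each section by a log2 difference of 0.51 in the fit (SE 0.07, edgeR adjusted p = 5.1e-05). Atp5e, the epsilon subunit, went from 842 to 962, 866 to 1326, 656 to 801 and 591 to 788 CPM in the same order (0.50, SE 0.07). Atp5o, the stalk subunit that confers oligomycin sensitivity, rose by 0.41 (SE 0.06), Atp5f1 of the peripheral stalk by 0.37 (SE 0.06) and Atp5c1, the central gamma subunit, by 0.35 (SE 0.06).
In complex II, Sdhc, a membrane anchor, went from 104 to 127, 143 to 195, 134 to 154 and 155 to 176 CPM (0.40, SE 0.06), and Sdhd, the other anchor, from 107 to 123, 158 to 188, 83.3 to 94.98 and 74.98 to 101 CPM (0.39, SE 0.07). The catalytic Sdha (0.25) and Sdhb (0.27) were called too. In complex I, Ndufv2 (0.39) and Ndufs6 (0.36) of the matrix arm rose together with Ndufs4 (0.37), Ndufb4 (0.35) and Ndufb6 (0.34), all with standard errors of 0.06 to 0.07. Ndufs6 went from 307 to 353, 363 to 461, 244 to 275 and 199 to 240 CPM. In complexes III and IV, Uqcrq rose by 0.32 (SE 0.07) and Cox7b by 0.29 (SE 0.06). The 3 genes whose promoters are printed above rose by 0.30 (Atp5k), 0.28 (Atp5l) and 0.25 (Cox6a1).

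**Figure D5:**
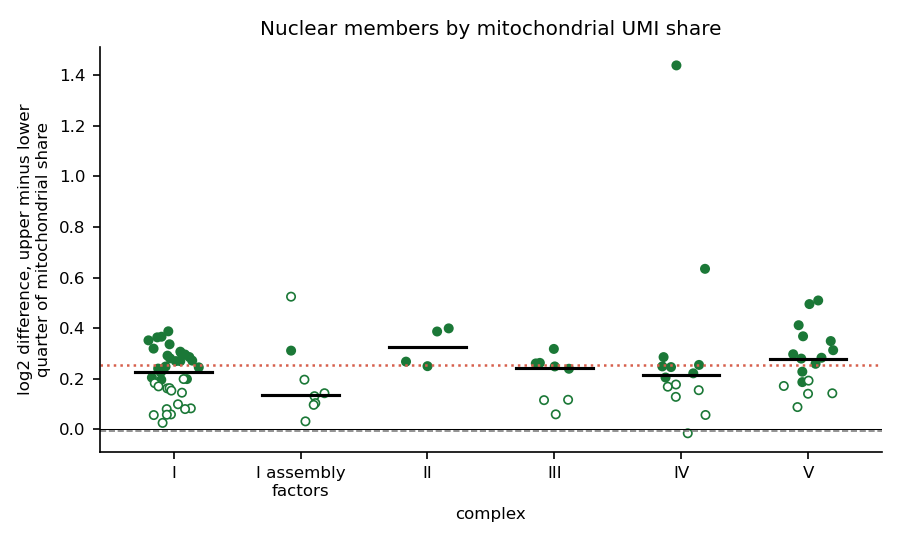
Log2 difference between high-share and low-share spots (y axis) for the nuclear members tested, by complex, with filled points for the 53 members called and a bar at each complex median. The dashed line is the median of all genes at −0.01 and the dotted line that of cytoplasmic ribosomal protein genes at 0.26; Cox8b is the point at 1.44.

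The muscle-type forms Cox8b and Cox7a1 had the largest differences of complex IV. Cox8b, at 1.44 (SE 0.36, edgeR adjusted p = 0.00874), went from 2.69 to 8.27 CPM in STAM20w and was at 0.24 to 0.60 CPM in both parts of the other sections; without STAM20w it had too few counts to be tested. Cox7a1, at 0.63 (SE 0.15, edgeR adjusted p = 0.00731), went from 6.09 to 9.34 CPM for STAM16w, 9.23 to 14.04 for STAM20w, 5.87 to 5.81 for DEN22w and 5.13 to 7.93 for DEN30w. Its call was lost without DEN30w (edgeR adjusted p = 0.0663).

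Other genes were called higher as well, to be read against the 6.9% of all genes and 21.3% of those at 50 CPM or more. Of 82 cytoplasmic ribosomal protein genes, 57 were called higher with a median of 0.26, and of 38 proteasome genes 8. In the related mitochondrial lists, those called higher were 3 of 10 electron carrier genes (Etfa 0.33, Etfdh 0.27 and Cyc1 0.25), 6 of 18 citric acid cycle genes (among them Dld, 0.32, and Suclg1, 0.27), 4 of 25 assembly factors of complexes III to V (led by Coa6, 0.32, Uqcc2, 0.25, and Coa5, 0.24), 2 of 13 carriers (Slc25a5, 0.26, and Slc25a20, 0.21), 2 of 21 genes of mitochondrial DNA upkeep and RNA handling (Grsf1, 0.31, and Hsd17b10, 0.23) and 0 of 14 chaperones and proteases. In the mitochondrial ribosome list 5 of 25 rose and 1 fell, led by Mrpl14, 0.33, Mrpl1, 0.41, and Mrpl9, 0.32. Summed as CPM of all UMIs, mitochondrial ones included, some lists were lower in the high-share spots of all 4 sections. They were the citric acid cycle, assembly factors, mitochondrial ribosome, mitochondrial DNA and RNA handling, and chaperones and proteases. This scale lowers other genes where mitochondrial UMIs are many, so a fall per non-mitochondrial UMI cannot be read from it. In the fit without mt- genes, the medians of these lists were 0.11, 0.007, 0.11, 0.08 and 0.05 in that order. Of the nuclear regulators, Ppara, the fatty acid receptor, was called higher by 0.59 (SE 0.15), with 14.5 to 13.5 CPM for STAM16w, 23.8 to 44.4 for STAM20w, 5.87 to 5.45 for DEN22w and 3.58 to 3.85 for DEN30w, so that STAM20w alone moved clearly. Pprc1, a coactivator related to PGC-1, fell by 0.43 on the log2 scale (SE 0.12); both pass the edgeR threshold.
Red cell transcripts moved with the mitochondrial share. The summed level of the 5 erythroid genes, in CPM of all UMIs, went from 219 to 473 for STAM16w, 159 to 704 for STAM20w, 185 to 406 for DEN22w and 182 to 674 for DEN30w. In the fit, 4 of the 5 were called higher, such as Hbb-bs at 2.29 (SE 0.14). In the 402 to 893 spots per section with no UMI of these genes, 0 of 85 nuclear members were called, with 15 of 8987 genes called higher in all, and the median was 0.18 with 78 above 0. Hepatocyte genes were called higher in 5 of 10, neutrophil genes in 2 of 4, and cycling cell genes lower in 3 of 6. Of 14 Kupffer cell and macrophage genes, 3 were called higher and 1 lower. The summed hepatocyte CPM of all UMIs was lower in the high-share spots of both STAM sections (log2 ratios −0.04 and −0.17). It was higher there in both DEN sections (0.17 and 0.23). On the same scale, which mitochondrial UMIs lower in high-share spots, 3 nuclear retained RNAs (Malat1, Neat1 and Kcnq1ot1) were summed. Their log2 ratios were −0.43 and −0.13 in STAM16w and STAM20w, and −0.36 and −0.40 in DEN22w and DEN30w. In the fit without mt- genes, 1 of the 3 was called higher and 1 lower. The part of these marker genes in the result was not tested. Leaving out DEN30w lowered the count of called members to 17 at a median of 0.22. Over all genes, 274 of 12198 were then called higher, against 892 of 12930 with it. With the spots richest in other cell types left out, 48 members and 575 of 12576 genes were called higher. In interior spots, 42 members and 423 of 12636 genes were.

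Over single spots, the mitochondrial and nuclear levels per 10000 other UMIs had a Pearson correlation of 0.16 and 0.22 in STAM16w and STAM20w, and 0.15 and 0.31 in DEN22w and DEN30w, over 2080, 2833, 2746 and 2968 spots. Spots of a section share its library and adjacent spots resemble each other, so these values are descriptions. After thinning each spot to 2000 UMIs they were 0.09, 0.19, 0.12 and 0.27. Mitochondrial UMIs outnumbered nuclear ones in 124 spots of STAM16w, 660 of STAM20w (23.3%), 98 of DEN22w and 243 of DEN30w.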

How the data were processed

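UMI counts per gene and spot of 4 sections were used as deposited; per the submitters' processing notes the authors used Space Ranger 1.3.1, STAR and mm10, and other settings are not given in the sources used here. The position tables (other columns) were deposited by the authors and gave spot positions. Spots with at least 500 UMIs and 250 genes were kept. Members and lists were chosen with earlier results of these data known. Spot counts of a class were added up within each section and tested with edgeR 4.0.16 in R 4.3.3 (quasi-likelihood, TMM, filterByExpr, Benjamini-Hochberg at 0.05), with section as a block except between models; DESeq2 1.42.0 was an alternative. On simulated counts with 100 genes changed by 1 and 100 by 2 on the log2 scale, the model comparison recovered 16% and 85% and the mitochondrial share comparison 84% and 95%. Zone scores used log1p of UMIs per 10000, each marker scaled within its section. Intervals are exact at 95%. Near-identical copies can take reads from a gene, so single-gene values of such genes, haemoglobins included, are uncertain. Symbols of all 106 members were matched to RefSeq GRCm38.p6, 1 by synonym. Named genes were all mitochondrial members, up to 12 nuclear members called per comparison and direction by smallest adjusted p, the 2 nuclear members with most UMIs per complex where they bear on a comparison, tissue forms, and up to 3 called genes per related list; Ndufa12, Uqcr10, Esrra, Ndufaf6, Cox7b in the mitochondrial share comparison, Uqcrq and the genes of printed promoters were added after their values were seen. Alternatives were another normalization or tool, no filter, other zone scores and cuts, subsets of spots, UMI minimums and leaving out each section.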

Additional observations from a re-analysis of the deposited data

Results flagged for a closer look

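The summed share of the 93 nuclear members moved in opposite directions with time in the models: it was 1.14-fold in STAM20w against STAM16w and 0.847-fold in DEN30w against DEN22w. The opposite directions are why this is listed; each rests on 1 section per time, and the difference was not tested. Groups of 2 sections are too small for the search for outlying samples.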

How the results depend on the processing

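Results are given over the alternatives run; where a value changed, the cause was not tested unless the alternative itself shows it. In the zone comparison, 1 nuclear member was called higher in periportal spots, against 2 with DESeq2, 0 without TMM scaling, 8 without the filter on low counts, 0 with zones by Cyp2e1 and Cyp2f2 alone, 2 with at least 2000 UMIs per spot, and 0 to 12 when 1 section was left out. Over all genes, 609 of 13449 were called higher, and in the same order 430, 254, 846 of 19962, 463, 607, and 239 to 507. The nuclear median there was 0.034 without TMM scaling. The count of mitochondrial genes called lower, 0, was 1 without TMM scaling, 1 without the filter, 1 without the spots rich in other cell types, and 0 to 1 with a section left out. Over all genes, 495 were called lower, and in the same order 922, 927, 362, and 221 to 620. The mitochondrial median was −0.25 without TMM scaling and ran from −0.17 to 0.0040 with a section left out, turning positive without STAM20w. For the difference between models in the zone effect, the nuclear median was −0.14 without TMM scaling, the mitochondrial one −0.17, 7 nuclear and 6 mitochondrial members were called lower in STAM without the filter, and 0 to 21 nuclear and 0 to 7 mitochondrial members with a section left out, when 0 to 1 nuclear member was called the other way; the mitochondrial median then ran from −0.53 to −0.20. Between models, the nuclear count of 0 was 23 with DESeq2 and 8 without the filter. Over all genes, 42 of 14417 were called higher in STAM, against 897 with DESeq2 and 1048 of 20484 without the filter. The nuclear median was 0.47 without TMM scaling, 0.48 in periportal and 0.76 in pericentral spots, and 0.46 to 0.79 with a section left out. The mitochondrial count of 2 was 11 with DESeq2, 0 without TMM scaling, 5 without the filter, and 0 to 3 with a section left out. In the mitochondrial share comparison, the nuclear count of 53 was 25 without TMM scaling, 0 in spots without erythroid UMIs, where fewer spots and genes entered, and 17 to 54 with a section left out. Over all genes, 892 of 12930 were called higher, and in the same order 311, 15 of 8987, and 274 to 856. The nuclear median there was 0.12 without TMM scaling and 0.18 in spots without erythroid UMIs. At 10 CPM or more, 1 nuclear member, Cox6b2, was 2-fold higher in STAM20w than in STAM16w. The ratio of mitochondrial to nuclear UMIs kept its direction in the alternatives run. The alternatives on spots without erythroid UMIs and on interior spots were chosen after seeing the data. Leaving out a section between models leaves 1 section on a side, which is assumed to vary like the others. No pairing between the models was possible because the replicate numbers only name the sections and tie no section of one model to one of the other. Zones and parts by mitochondrial share were compared within sections. At 2 sections a group, the model comparison can miss changes of 2-fold.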
